A study of Rattus norvegicus with 6 samples.

Results

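Potassium channel genes were compared between H9c2 cells depleted of the long non-coding RNA Tug1 and their controls. The genes were all rows of the count table whose symbol begins with Kcn, then letters, then a number, and 93 of the 40456 rows met this rule. Of these, 31 had at least 10 counts in at least 3 libraries and are described here, by channel class. H9c2 (2-1) is a rat heart-derived myoblast line, labelled WT for genotype and cardiomyocyte for cell type. The cells of all 6 libraries were held for 5 days in medium with 1% serum and 1 µM retinoic acid, then given 25 nM of a locked nucleic acid gapmer for 24 h, which is a short antisense strand that directs RNase H to its target RNA. The control group (3 libraries) received the negative control LNA and the knockdown group (3 libraries) the Tug1 knockdown LNA, so both groups carried a gapmer and the transfection reagent. Each group rests on 1 cell line and 1 oligonucleotide.

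Potassium channels let potassium leave or enter the cell along its gradient and so set the resting potential and end the action potential. In muscle, voltage-gated channels repolarise the membrane, inward rectifiers and two-pore domain channels hold it at rest, and calcium-activated channels tie it to calcium entry. Most are built from pore-forming alpha subunits, to which auxiliary subunits bind and change gating or transport to the surface. Some ion channel genes carry a repressor element (RE1), to which the factor REST binds in cells outside the nervous system.

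The libraries held 12978548 to 13544337 counts, and 1 CPM (counts scaled to library size) corresponded to 12.9 to 13.8 counts. Counts of Tug1 were 713, 672 and 718 in the controls and 164, 152 and 165 after knockdown, so the libraries followed their labels. Of the 13 cardiomyocyte markers on a list, 5 (Myh6, Myh7, Nppb, Ryr2 and Nkx2-5) had at most 3 counts in every library, so the label cardiomyocyte is not borne out by these defining markers. Tnni3, Nppa, Myl7 and Mybpc3 had at most 8 counts in any library. Of the 13, 4 had enough counts to be tested, namely Tnnt2, Gata4, Actc1 and Myl2. Tnnt2 was at 4332 to 6051 counts per library, Gata4 at 137 to 179, Actc1 at 115 to 259 and Myl2 at 5 to 25. The summed level of the list, mostly from Tnnt2, was 359 to 391 CPM in controls and 419 to 471 CPM after knockdown. All 12 skeletal muscle markers were measurable, and their summed level was 943 to 954 CPM in controls and 1379 to 1467 CPM after knockdown. Of these, Myod1 was lower after knockdown (log2 fold change -0.32), Myh8 did not pass (0.75) and the others were higher. The summed level of 8 neuronal and glial markers was 5.42 to 7.02 CPM in controls and 14.9 to 17.5 CPM after knockdown, mostly from Map2, while Snap25 and Mbp stayed at or under 3 counts. Summed markers of smooth muscle were at 976 to 1070 CPM and 1134 to 1290 CPM, those of leukocytes at 78.1 to 82.0 CPM and 50.2 to 50.4 CPM, and those of endothelium at 3.10 to 4.63 CPM and 3.11 to 4.28 CPM. Within the leukocyte list Cd14 was lower after knockdown (log2 fold change -1.03), Cd68 was higher (1.09), Csf1r did not pass (0.21) and Ptprc had no counts. Fibroblast markers stood at 43810 to 45160 CPM and 41180 to 44000 CPM. Among them Col3a1 (0.47) and Dcn (0.57) were higher after knockdown, and Col1a1 (-0.23), Thy1 (-0.40) and Postn (-0.47) were lower. Col1a2 and Lum did not pass. The part of these marker shifts in the channel results was not tested. In these bulk libraries fewer cells of a type and less RNA per cell cannot be told apart.

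Promoters are shown for Kcnn3 and Kcnh6, the members with an entry in the RefSeq promoter table that moved furthest up and down, and for the transient outward channel gene Kcnd3. Each window runs from 250 bases before to 50 after the annotated start in the rat assembly GRCr8, the build of the table, since the build of the counts is not given in the sources used here. Capitals mark the GC box GGGCGG and the left part of the RE1 element, TTCAGCACC, searched on both strands.
Kcnh6, chr10:91449401-91449700, + strand: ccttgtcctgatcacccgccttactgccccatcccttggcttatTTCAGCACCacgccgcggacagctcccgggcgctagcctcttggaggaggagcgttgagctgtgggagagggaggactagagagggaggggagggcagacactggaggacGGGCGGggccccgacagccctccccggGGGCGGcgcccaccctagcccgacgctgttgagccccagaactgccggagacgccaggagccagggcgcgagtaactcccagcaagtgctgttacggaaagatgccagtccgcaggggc
Kcnd3, chr2:195626066-195626365, + strand: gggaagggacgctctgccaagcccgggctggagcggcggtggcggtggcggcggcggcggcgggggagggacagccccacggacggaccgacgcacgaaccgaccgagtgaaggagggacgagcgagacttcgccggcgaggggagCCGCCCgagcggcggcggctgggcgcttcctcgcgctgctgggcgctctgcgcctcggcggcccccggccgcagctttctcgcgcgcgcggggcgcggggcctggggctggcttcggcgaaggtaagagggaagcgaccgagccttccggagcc
Kcnn3, chr2:177234090-177234389, + strand: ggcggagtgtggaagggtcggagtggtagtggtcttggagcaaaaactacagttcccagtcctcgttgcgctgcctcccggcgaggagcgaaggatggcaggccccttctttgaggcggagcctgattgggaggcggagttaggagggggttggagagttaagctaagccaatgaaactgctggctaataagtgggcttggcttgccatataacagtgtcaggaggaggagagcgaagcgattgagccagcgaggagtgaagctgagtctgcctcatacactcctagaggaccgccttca
The Kcnh6 window holds 2 GC boxes and 1 RE1 left part, the Kcnd3 window 1 GC box, and the Kcnn3 window none of these letters. The rest of the RE1 element was not searched for, and binding of REST was not tested. TTCAGCACC stood in 119 of 33469 promoter windows (0.356%), and among the 63 members with a window only in that of Kcnh6. GC boxes stood in 33.1% of all windows, in 60.5% of 10529 windows of tested genes and in 11 of 20 windows (55.0%) of the measured members. The palindromic E-box CAGCTG, a site type of myogenic factors, stood in 15.1% of all windows and in 1689 of the 10529 windows of tested genes. It stood in 5 of the 20 windows (25.0%) of measured members and in 14 of the 43 windows (32.6%) of unmeasured members. The E-box was thus no more frequent in measured than in unmeasured members. The median number of CpG dinucleotides per window was 24 in measured members and 11 in the 43 windows of members below that level. It was 20 in windows of tested genes and 7 in all windows, so a higher number in measured genes was not particular to the channels.

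Most of the family had few or no counts in these cells. Of the 62 members below the level for testing, 24 had no count in any of the 6 libraries and 38 had some, with a highest single value of 13. A count of 0 allows up to 3 counts, or 0.217 to 0.232 CPM per library. The annotation and counting behind the table are not given in the sources used here, and low counts could not be checked against reads. The genes at 0 included Kcnj2, the pore of the classical cardiac inward rectifier, Kcnj3 and Kcnj5, whose products form the acetylcholine-gated atrial channel, Kcna5, the ultrarapid atrial repolarising channel, and Kcnj11, the pore of the sarcolemmal ATP-sensitive channel of heart muscle. Kcnma1, the pore of the large-conductance calcium-activated (BK) channel, had 1 count over all 6 libraries. Kcnd2, a rapidly inactivating voltage-gated channel, also had 1. Kcnq1, the slow delayed rectifier of the heart, had 11 counts over the 3 control libraries and 28 over the 3 knockdown libraries, and its partner Kcne1 had 0 and 3. With no filter on low counts, 38 of the 62 entered edgeR's fit, where 8987 of 26059 genes passed an adjusted p of 0.05. Of the 38 a smaller share passed, namely 2, both at low counts (6 had an unadjusted p under 0.05). Kcne4, an inhibitory auxiliary subunit, had 1, 1 and 0 counts in controls and 5, 7 and 6 after knockdown, and Kcnj10, an inward rectifier, had 4, 0 and 5 against 12, 5 and 12.

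**Figure D1:**
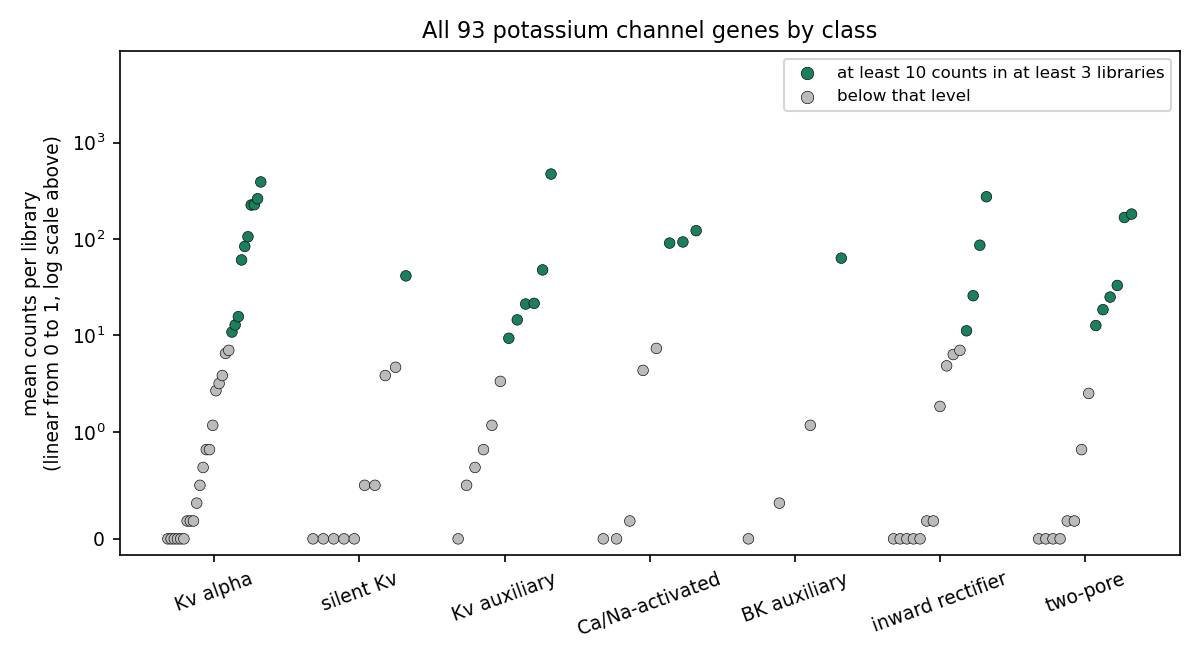
Mean counts per library (linear from 0 to 1, log scale above) of all 93 potassium channel genes, 1 point per gene, by class. Green points are the 31 genes with at least 10 counts in at least 3 libraries, and the grey points include 24 genes at 0.

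Among the 31 measured members, 16 changed after Tug1 knockdown, 11 higher and 5 lower. That is 51.6% of them, against 61.7% of all 14216 tested genes, and the members were thus called no more often than the background. Higher calls made up 35.5% of the members against 30.8% of tested genes, and lower calls 16.1% against 30.9%. The median log2 fold change was 0.21 for the members and 0.00 for all tested genes. A change of at least 1 on the log2 scale was reached by 5 members (16.1%, background 9.80%), among them Kcnn3, Kcnk13 and Kcnd3 upward and Kcnh6 downward. Control and knockdown libraries did not overlap for 18 members (58.1%, background 65.6%). Among the members 1 reached the measured set only through its knockdown libraries and Kcnab3 only through its controls, so counts over the set describe it and support nothing further. The spans of 15 of the 31 overlap another annotated gene in GRCr8, in most cases a non-coding one without a name, so reads of such pairs may be shared. Calls are at an adjusted p under 0.05 by the quasi-likelihood test of edgeR, adjusted by Benjamini-Hochberg over all tested genes, and SE is that of the log2 fold change.

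**Figure D2:**
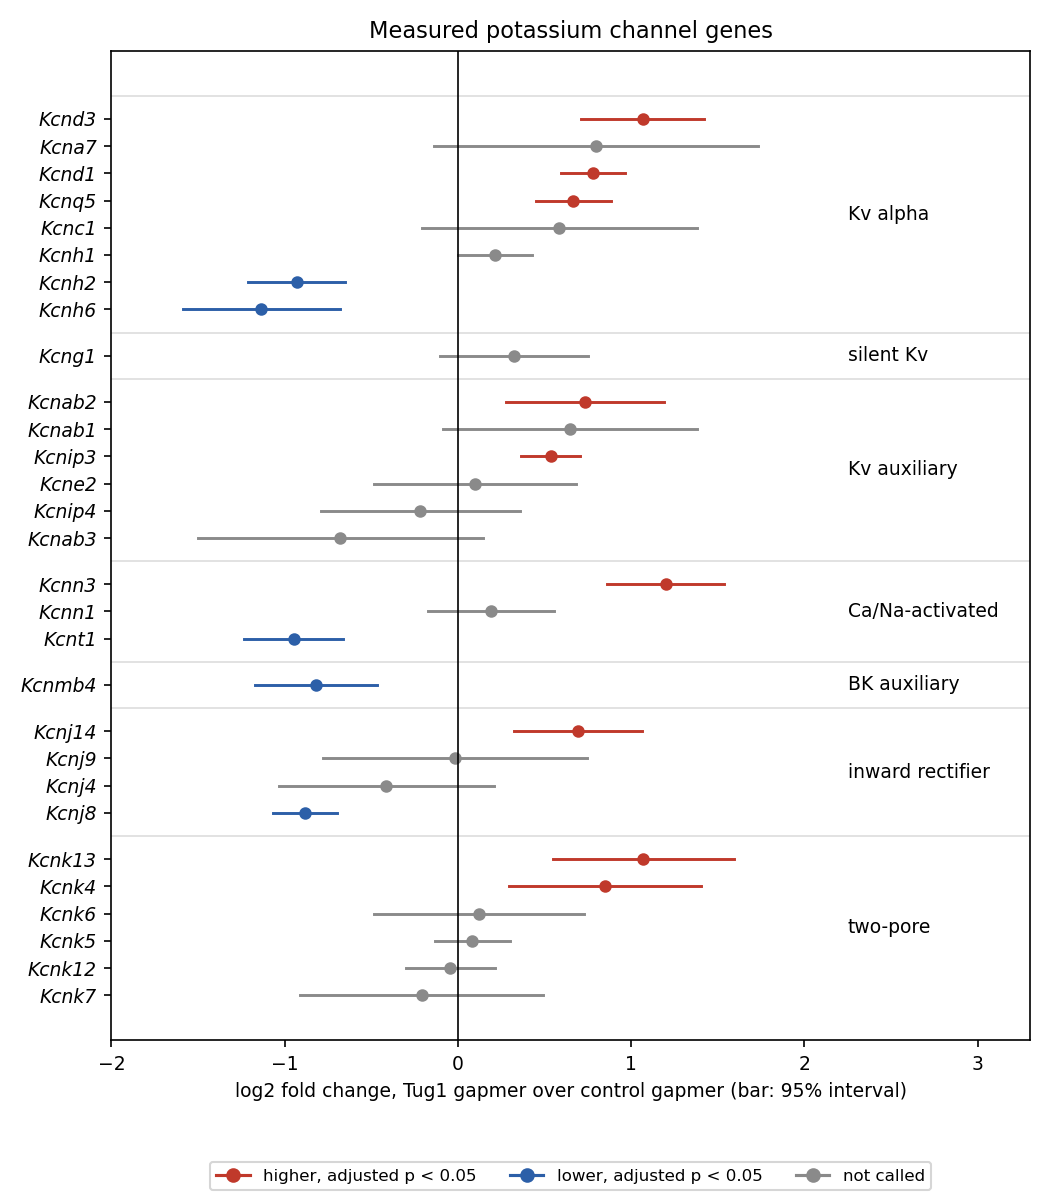
Log2 fold change (Tug1 gapmer over control gapmer) of 29 measured genes by class, with the 95% interval of edgeR's fit as a bar. Red genes (9) rose, blue genes (5) fell and grey genes (15) did not pass; Kv stands for voltage-gated and BK for the large-conductance calcium-activated channel.

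Voltage-gated alpha subunits were the class with the most measured members, 10 of the 30 in the table, and 7 of the 10 changed (70.0%, background 61.7%). The transient outward genes Kcnd1 and Kcnd3 and the slowly activating, M-current type gene Kcnq5 rose, while the ether-à-go-go-related genes Kcnh2 and Kcnh6, which encode rapid delayed rectifiers, fell. Counts of Kcnd1, given here as for all genes in the order of replicates 1, 2 and 3, were 204, 182 and 178 in controls and 342, 336 and 331 after knockdown. Every knockdown library lay above every control library. Its level went from 14.5 ± 1.02 to 24.9 ± 0.106 CPM (SD, n = 3), with a log2 difference of 0.78, SE 0.0883 and an adjusted p of 7.22e-08 in edgeR. Kcnd3, which carries transient outward current in heart muscle, had 54, 54 and 50 counts in controls and 134, 87 and 124 after knockdown. The groups did not overlap, though knockdown replicate 2 was nearer to the controls than the other two. The level of Kcnd3 went from 4.06 ± 0.177 to 8.50 ± 1.80 CPM (SD, n = 3), with a log2 difference of 1.07, SE 0.171 and an adjusted p of 1.05e-05 in edgeR.

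Kcnq5 had 198, 143 and 173 counts in controls and 302, 275 and 273 after knockdown, without overlap. Its level rose from 13.2 ± 2.06 to 20.9 ± 0.826 CPM (SD, n = 3), by 0.67 on the log2 scale (SE 0.105, edgeR adjusted p 8.67e-06). Kcnq5 is a very long gene, with a span of 566 kb in GRCr8. A length offset removes from each library the trend with genomic span. Once it was applied, the log2 fold change was 0.23 for Kcnq5 (edgeR adjusted p 0.0482) and 0.74 for Kcnd3 (0.000725).

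Kcnh6 had 70, 108 and 69 counts in controls and 28, 46 and 43 after knockdown. Control replicate 2 was the highest library, and all knockdown libraries lay below all controls. Its level fell from 6.35 ± 1.74 to 2.89 ± 0.752 CPM (SD, n = 3), with a log2 difference of -1.13, SE 0.218 and an adjusted p of 9.92e-05 in edgeR. Its relative Kcnh2, singled out beside it after the values were seen, had 135, 139 and 136 counts in controls and 68, 85 and 71 after knockdown, again without overlap. The log2 fold change of Kcnh2 was -0.93 (SE 0.136, edgeR adjusted p 2.97e-06). Kcnh1, of the ether-à-go-go branch of the same family, was at 200, 205 and 208 counts in controls and 217, 283 and 241 after knockdown. It did not pass (0.21, 95% interval -0.00048 to 0.43, edgeR adjusted p 0.0778), but did so with library totals in place of TMM (0.27, 0.0283) and without knockdown replicate 1 (0.31, 0.0133), and was negative with the length offset (-0.15). Kcna7 (0.80, 95% interval -0.14 to 1.73) and Kcnc1 (0.58, 95% interval -0.21 to 1.38), both near 1 CPM, did not pass. Kcna7 passed without control replicate 3 (1.55, edgeR adjusted p 0.0161) and was at 0.42 without control replicate 2 (0.456), and Kcnc1 ran from 0.30 to 0.84 when single libraries were left out. Over the 10 alpha subunits, CPM summed without correction for transcript length were 91.5 to 95.9 CPM in controls and 113 to 121 CPM after knockdown.

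The silent alpha subunits form channels only together with other subunits. Kcng1 was the only one of 10 that was measurable. It had 40, 38 and 30 counts in controls and 48, 48 and 45 after knockdown, without overlap, but did not pass (0.32, 95% interval -0.10 to 0.75, edgeR adjusted p 0.177).

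Of 12 auxiliary subunit genes of voltage-gated channels, 6 were measurable and 2 changed, both upward (33.3%, background 61.7%). Kcnip3 encodes a calcium-binding partner of the transient outward channels that is also known as a transcriptional repressor. It had 344, 411 and 374 counts in controls and 613, 596 and 498 after knockdown, and the groups did not overlap. Its level went from 29.0 ± 2.72 to 42.0 ± 3.84 CPM (SD, n = 3), with a log2 difference of 0.54, SE 0.0818 and an adjusted p of 5.50e-06 in edgeR. Kcnip4, of the same family but at 18 to 25 counts per library, was at -0.22 (95% interval -0.79 to 0.36) and did not pass. It spans 1151 kb, and with the length offset it was called lower (-0.71, edgeR adjusted p 0.0259). Kcnab2, a beta subunit of the Shaker-type channels, rose by 0.73 (SE 0.22, edgeR adjusted p 0.00617) and lost its call without knockdown replicate 2 (0.54, 0.0562). In GRCr8 its span overlaps that of Nphp4, and whether strand was used in counting is not given in the sources used here. Its relatives Kcnab1 (0.65, 95% interval -0.09 to 1.38) and Kcnab3 (-0.68, 95% interval -1.50 to 0.14) did not pass, although the groups of Kcnab3 did not overlap. Kcnab1 passed without knockdown replicate 1 (0.91, edgeR adjusted p 0.0301), and was at 0.39 without knockdown replicate 2 and 0.24 with the length offset. Kcne2, a single-span partner of rapid delayed rectifiers, was at 0.10 (95% interval -0.49 to 0.68).

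Among channels opened by calcium or sodium, 3 of 8 alpha subunit genes were measurable and 2 changed (66.7%, background 61.7%). Of the 3, Kcnn3 rose, Kcnt1 fell and Kcnn1 did not pass. Kcnn3, a small-conductance channel opened by calcium through bound calmodulin, had 43, 57 and 65 counts in controls and 117, 148 and 130 after knockdown. The lowest knockdown library was well above the highest control library. Its level went from 4.24 ± 0.870 to 9.75 ± 1.24 CPM (SD, n = 3), with a log2 difference of 1.20, SE 0.162 and an adjusted p of 1.02e-06 in edgeR; it was 0.93 with the length offset. Kcnn1, of the same small-conductance family, had 61, 110 and 78 counts in controls and 90, 110 and 96 after knockdown. These overlapped, and the log2 fold change of 0.19 (95% interval -0.17 to 0.55) did not pass, though it did without control replicate 2 (0.44, edgeR adjusted p 0.039); without control replicate 1 it was at 0.0022. Kcnn2 had no counts, and Kcnn4, the intermediate-conductance channel, had 16 over the control and 10 over the knockdown libraries. Kcnt1, a sodium-activated channel, had 179, 158 and 139 counts in controls and 77, 83 and 97 after knockdown. All knockdown libraries lay below all controls, and its level fell from 12.2 ± 1.50 to 6.35 ± 0.891 CPM (SD, n = 3), with a log2 difference of -0.95, SE 0.138 and an adjusted p of 2.85e-06 in edgeR.

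For the BK channel an auxiliary subunit gene was measurable, while the pore gene was listed with almost no counts. Kcnmb4, which slows the gating of that channel, had 75, 80 and 84 counts in controls and 48, 51 and 42 after knockdown, without overlap. It fell from 6.14 ± 0.366 to 3.47 ± 0.30 CPM (SD, n = 3), with a log2 difference of -0.82, SE 0.169 and an adjusted p of 0.000214 in edgeR. The pore gene Kcnma1 stood at 1 count in all, as given above.

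Of 15 inward rectifier genes 4 were measurable, and 2 changed in opposite directions (50.0%, background 61.7%). Kcnj8 encodes the pore of the vascular-type ATP-sensitive potassium channel, which couples membrane potential to energy state. It had 387, 340 and 327 counts in controls and 199, 199 and 198 after knockdown. The 3 knockdown libraries were nearly equal and lay far below the controls. Its level fell from 27.1 ± 2.33 to 14.7 ± 0.265 CPM (SD, n = 3), with a log2 difference of -0.88, SE 0.0897 and an adjusted p of 1.36e-08 in edgeR. Abcc9, the sulfonylurea receptor that assembles with it, had 1359, 1342 and 1398 counts in controls and 1411, 1404 and 1455 after knockdown. Its log2 fold change was 0.00 (95% interval -0.11 to 0.11, edgeR adjusted p 0.998), and -0.23 with the length offset (0.000298). For every 100 counts of Abcc9 there were 28.5, 25.3 and 23.4 of Kcnj8 in the controls and 14.1, 14.2 and 13.6 after knockdown. These ratios did not overlap, but they carry no length offset, and no test of the ratio was run. With the length offset the log2 fold changes of Kcnj8 (-0.76) and Abcc9 (-0.23) lay closer together than without it. The other pore and receptor genes of these channels, Kcnj11 and Abcc8, had 0 and 2 counts over all libraries.

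Kcnj14, an inward rectifier studied mostly in neurons, rose by 0.69 (SE 0.178, edgeR adjusted p 0.00178), from 4.96 ± 0.982 to 8.03 ± 1.79 CPM (SD, n = 3). Kcnj4 had 17, 37 and 33 counts in controls and 29, 17 and 22 after knockdown, and its log2 fold change of -0.41 (95% interval -1.03 to 0.21) did not pass, though it did without control replicate 1 (-0.69, edgeR adjusted p 0.0475); without control replicate 2 it was at -0.20. Kcnj9 was at -0.02 (95% interval -0.78 to 0.75), and its span overlaps that of Igsf8 in GRCr8.

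Two-pore domain channels carry background current at rest. Of 14 such genes 6 were measurable and 2 rose (33.3%, background 61.7%). Kcnk13 had 24, 21 and 17 counts in controls and 42, 57 and 37 after knockdown, without overlap. Its log2 fold change was 1.07, with SE 0.252 and an adjusted p of 0.000829 in edgeR. Kcnk4, a channel opened by membrane stretch and lipids, rose by 0.85 (SE 0.267, edgeR adjusted p 0.00835), from 1.34 ± 0.305 to 2.42 ± 0.0978 CPM (SD, n = 3). Kcnk5, opened by alkaline pH, had the most counts of the class, with 171, 169 and 178 in controls and 184, 212 and 176 after knockdown. The groups overlapped, and the log2 fold change of 0.08 had a 95% interval of -0.13 to 0.30. Kcnk12, a subunit reported to be silent on its own, was at -0.04 (95% interval -0.30 to 0.21), so changes beyond about 0.30 in either direction lie outside the intervals of both. Kcnk6 (0.12, 95% interval -0.48 to 0.73) and Kcnk7 (-0.21, 95% interval -0.91 to 0.49) had few counts and wide intervals.

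**Figure D3:**
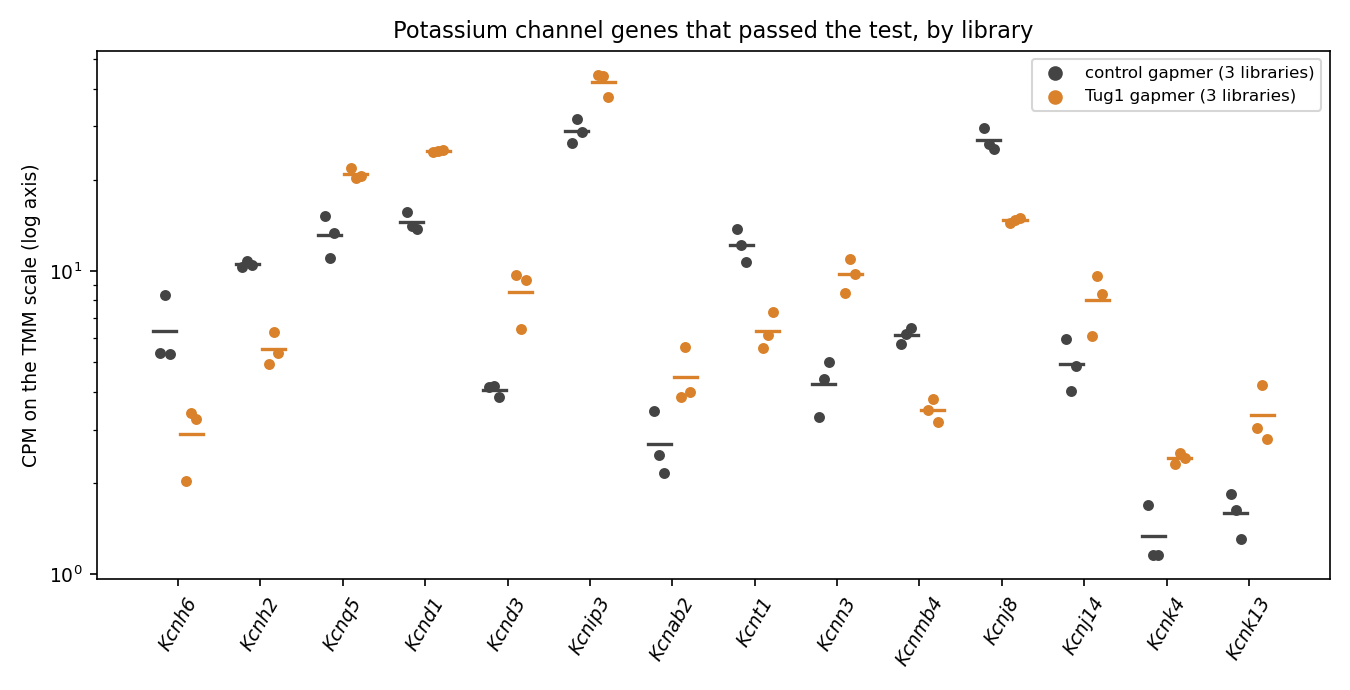
CPM on the TMM scale (log axis) of 14 genes that passed the test, with 1 point per library and a bar at the mean of each group (3 control and 3 knockdown libraries). Knockdown and control points of each gene do not overlap, with 9 genes higher and 5 lower after knockdown.

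Long genes tended to be higher after knockdown in these libraries, and many channel genes are long. The median span was 41.8 kb for the 31 members and 22.4 kb for all tested genes. Among the members it was 88.5 kb for those that rose, 32.1 kb for those that fell and 27.05 kb for those not called. Log2 fold change and log2 span correlated with Pearson's r of 0.25 (Spearman's rho 0.26) across the 31 members and 0.24 (0.27) across the 13084 tested genes with a span. These points are genes of the same libraries and not replicates. With the length offset 10 of the 11 risers and all 5 fallers kept their call and direction.

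**Figure D4:**
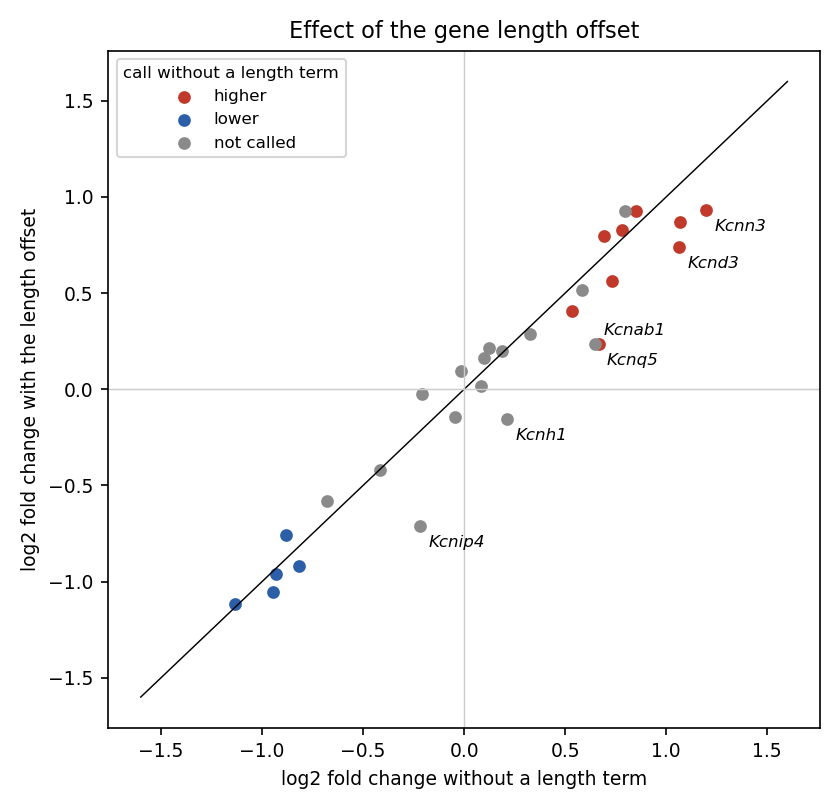
Log2 fold change of 29 measured genes without (horizontal) and with (vertical) the gene length offset, coloured by the call without it, with the line of equality. The 6 labelled genes moved by more than 0.25, all downward, and the 5 genes that fell stayed between -1.12 and -0.76.

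A list of 26 genes covers proteins that bind, place or clear potassium channels. Of their transcripts 18 were tested and 13 changed, 10 higher and 3 lower (72.2%, background 61.7%), with a median log2 fold change of 0.20 against 0.00 for all tested genes. With the length offset the split was 8 higher and 5 lower: Dlg1 (0.18 without the offset, -0.12 with it) turned to lower, Ank2 (0.55, then 0.11) lost its call and Abcc9 was called lower. Cav1, the caveolar coat protein, fell from 380 ± 15.1 to 132 ± 10.3 CPM (SD, n = 3), with a log2 difference of -1.53, SE 0.0539 and an adjusted p of 3.58e-16 in edgeR. Ank3, an ankyrin that anchors channels to the spectrin skeleton, rose by 0.94 (SE 0.0949) and Dlg3, a scaffold of the membrane guanylate kinase type, by 0.75 (SE 0.0982). With the length offset the rise of Ank3 was 0.49 (edgeR adjusted p 8.35e-05). The partners of transient outward channels Dpp6 and Dpp10 had at most 1 count in any library.

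On a list of 14 other channels for monovalent cations, 12 were tested and 5 changed, 3 higher and 2 lower (41.7%, background 61.7%, median log2 fold change 0.08). Hcn2, a pacemaker channel opened by hyperpolarisation, had 559, 646 and 527 counts in controls and 306, 278 and 273 after knockdown. The groups lay far apart, and the log2 fold change was -1.07, with SE 0.0832 and an adjusted p of 1.53e-10 in edgeR. Tmem38a, a cation channel of the sarcoplasmic reticulum, rose by 0.61 (SE 0.0471) and Trpm7, a channel fused to a kinase, by 0.47 (SE 0.05). With the length offset these rises were 0.66 for Tmem38a and 0.295 for Trpm7.

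Of 23 genes for the sodium-potassium pump, the SLC12 cation-chloride cotransporters and their regulators, 17 were tested and 12 changed, 5 higher and 7 lower (70.6%, background 61.7%, median log2 fold change 0.04). Alternative settings of the analysis called 9 to 13 genes of this list. With the length offset the split was 5 higher and 8 lower. Fxyd5, a pump regulator, fell from 111 ± 6.56 to 54.1 ± 3.29 CPM (SD, n = 3), with a log2 difference of -1.03 and SE 0.061. The cotransporter genes Slc12a3, whose product carries sodium and chloride and no potassium (2, 7 and 6 counts in controls, 12, 22 and 23 after knockdown), and Slc12a5 (13, 4 and 9 against 14, 22 and 19) rose by 1.84 (SE 0.434) and 1.01 (SE 0.383) at very low counts. For Slc12a3 no control library reached 10 counts, so it was tested only through its high knockdown libraries, and Slc12a5 also had 10 counts in 3 libraries of 1 group only, the knockdown group. Slc12a5 (edgeR adjusted p 0.0256) was not called by DESeq2's Wald test (adjusted p 0.0829) or without control replicate 2 (edgeR adjusted p 0.147), control replicate 3 (0.0544), knockdown replicate 2 (0.09) or knockdown replicate 3 (0.0613).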

How the data were processed

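Poly-A RNA from 6 libraries was sequenced after stranded library construction from 500 ng of RNA with an integrity number of at least 9, per the labels' protocols. FastQC 0.11.7, fastp 0.14.1 and STAR 2.5 are named in the submitters' processing notes. The counting tool, genome build and use of strand in counting are not given in the sources used here. The authors deposited raw whole-number counts per gene symbol, 1 column per library, with no other columns.

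Counts were analysed with edgeR 4.0.16 in R 4.3.3. The expression filter of edgeR (at least 10 counts in the smaller group's number of libraries and 15 in all) left 14216 tested genes, all 31 measured members included. TMM scaling and the quasi-likelihood test (two-sided, prior count 0.125, no block) were used, with Benjamini-Hochberg adjustment over all tested genes and a call at an adjusted p under 0.05. SE is the absolute log2 fold change divided by the square root of the F statistic, and 95% intervals use the test's degrees of freedom. The members and lists were chosen with earlier results of these data known. Classes follow the symbols. Measured members are named, except a few that enter the counts only and are not reported here; counts per library are given for called members with a log2 fold change of at least 1 in either direction or a mean of at least 10 CPM and for the most counted member of each class. From each other list the 3 called genes with the largest change are named. Counts are not corrected for transcript length, so sums and the Kcnj8 to Abcc9 ratio are compared between groups only, and no order of levels between genes is given. Alternatives were DESeq2 1.42.0 (size factors and Wald test), library totals, limma-voom (limma 3.58.1), other filters, a stricter adjusted p of 0.01, a block on the replicate number, leaving out single libraries, and a length offset (a lowess trend, span 0.3, on genomic span in GRCr8, known for 92.0% of tested genes). Scripts were tested on simulated data. The labels do not say whether libraries came from separate cultures, so p-values measure only the spread between these libraries, which may be technical. Reads carry no molecular identifiers, and limits from a count of 0 cover counting error only. Replicates differed by more than counting noise (chi-square per gene from 2.15 to 3.55), so all 6 counted as separate libraries.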

Additional observations from a re-analysis of the deposited data

How the results depend on the processing

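The number of changed potassium channel genes ran from 15 to 18 over 16 alternatives, with 10 to 13 higher and 5 or 6 lower, and the number of changed genes in all from 7353 to 8987. When single libraries were left out these were 15 to 18 and 8068 to 8363, and the count for voltage-gated auxiliary subunits was 1 to 3, with 1 without knockdown replicate 2. Of the 31 members, 20 kept direction and call in every alternative that tested them, among them 14 of the 16 that changed. Kcnab2 was among the others, as given above. The direction turned for 4 members that did not pass. Kcnk12 was at 0.0088 with library totals and ran from -0.13 to 0.068 without single libraries. Kcnj9 was at 0.036 with library totals, 0.023 with limma-voom, 0.093 with the length offset and 0.098 with the replicate block and length offset, and ran from -0.20 to 0.26 without single libraries. Kcne2 ran from -0.017 to 0.30 without single libraries. Kcnh1 was at -0.15 with the length offset and -0.16 with that and the block. The cause of these shifts was not tested.

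Libraries with the same replicate number were not paired, since their deviations had correlations of -0.0079, 0.041 and 0.037. With the number as a replicate block 16 channel genes were called, and no member's call changed. Depth limits members near 1 CPM, which hold about 13 counts per library.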
